A study of Drosophila melanogaster with 24 samples.

Results

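The vacuolar ATPase (V-ATPase) subunit genes are described here as every row of the gene count table whose symbol starts with *Vha*, which gave 33 of the 16995 genes listed. They fall into 13 members of the V1 sector, 18 of the V0 sector and 2 accessory members. The libraries come from *tau*-KO *Drosophila melanogaster*, a fly line with a deletion in *tau*, the only fly gene of the Tau family, and each library was made from the RNA of 1 brain. Females and males were sampled as uninjured controls and at 1, 2 and 4 h after a single strike of full body trauma (TBI) from a high impact trauma device, in which flies hit the wall of a vial, with 3 libraries in each of the 8 groups. All flies, controls included, carried the *tau* deletion and were mated adults in the second week of life, so that no group here has intact *tau*. The deleted line and its non-deleted background were not compared.

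The V-ATPase is a rotary pump that spends ATP to move protons into lysosomes, endosomes and synaptic vesicles. The V1 sector sits in the cytosol and splits ATP, the V0 sector lies in the membrane and carries the protons, and the 2 sectors can come apart and join again. In neurons the proton gradient fills synaptic vesicles with transmitter, and in all cells it keeps lysosomal enzymes active. In the fly many subunits are encoded by several paralogues, of which some are expressed broadly and others mainly in the testis or in other tissues.

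Levels are given as CPM, the count of a gene divided by the depth of its library, scaled with TMM factors (trimmed mean of M values, which adjust for differences in library composition). The assay reads only the 3′ end of each polyadenylated RNA, 1 tag per molecule, so a count does not grow with transcript length and the CPM of different genes can be set side by side. Total counts ran from 117416 to 1880528 per library, with a median of 772916, and 3 counts correspond to 25.6 CPM in the shallowest library and 1.60 CPM in the deepest before TMM. The level of *tau* itself was 53.1 to 190.4 CPM over the 24 libraries. A 3′ tag outside the deleted stretch cannot check the deletion, and its place relative to the deletion is not given in the sources used here. All 11 neuronal and all 10 glial marker genes had counts in every group. The libraries male control 2 and male 1 h 2 stood apart. The summed level of 8 muscle genes was 282.0 and 297.4 CPM in them, against 2600 to 3865 CPM in the other 22 libraries, and the summed level of the gut and Malpighian tubule genes, of which 6 of 7 had counts, was 12.9 and 54.5 CPM, against 446.6 to 1886 CPM. The other 22 libraries thus held RNA of marker genes of tissues other than brain, and its part in the *Vha* levels was not tested. Most changes between groups that rest on male control 2 or male 1 h 2 are given with and without 1 or both of them. The group means, the group ratios, the coefficients of variation and the depth correlations over all 24 libraries include both. In RNA from a whole brain, fewer cells of a type and less RNA per cell cannot be told apart.

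A filter of at least 5 counts in at least 3 libraries left 20 members for testing, 10 in V1, 8 in V0 and both accessory members. These 20 covered all 13 subunits, 8 of V1 and 5 of V0. Of the 13 members that did not pass, 9 had 0 counts in all 24 libraries. They were *Vha100-3*, *Vha100-4* and *Vha100-5* (subunit a), *Vha16-2*, *Vha16-3* and *Vha16-4* (subunit c), *VhaAC39-2* (subunit d), *VhaM9.7-d* (subunit e) and *Vha36-2* (subunit D). A count of 0 in the 19947845 counts of the 24 libraries together allows a level of up to 0.150 CPM. The other 4 had 2 to 8 counts in all. *Vha68-3* had 8 counts in 5 libraries, while *VhaPPA1-2* had 8 and *Vha16-5* had 6, all of them in male 1 h 1, and the 2 counts of *Vha14-2* came from female 4 h 3. Male 1 h 1 was also the library with the highest summed level of 4 testis markers, 215.9 CPM, against 0 to 16.3 CPM in the other 23. All 33 members had an entry in RefSeq (assembly Release 6 plus ISO1 MT), 1 of them, *VhaM8.9*, under the newer symbol *ATP6AP2*. They lie on the X chromosome (2), arm 2L (6), arm 2R (8), arm 3L (5) and arm 3R (12). Among protein-coding genes there, *Vha68-2* neighbours *Vha68-3*, *Vha16-3* neighbours *Vha16-2*, and *Vha100-4* neighbours *Vha100-2*. In the first pair *Vha68-2* had counts in all 24 libraries, and *Vha68-3* was near 0. In the last pair *Vha100-2* had counts in 22 libraries, at a median of 7.52 CPM, and *Vha100-4* was at 0.

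**Figure D1:**
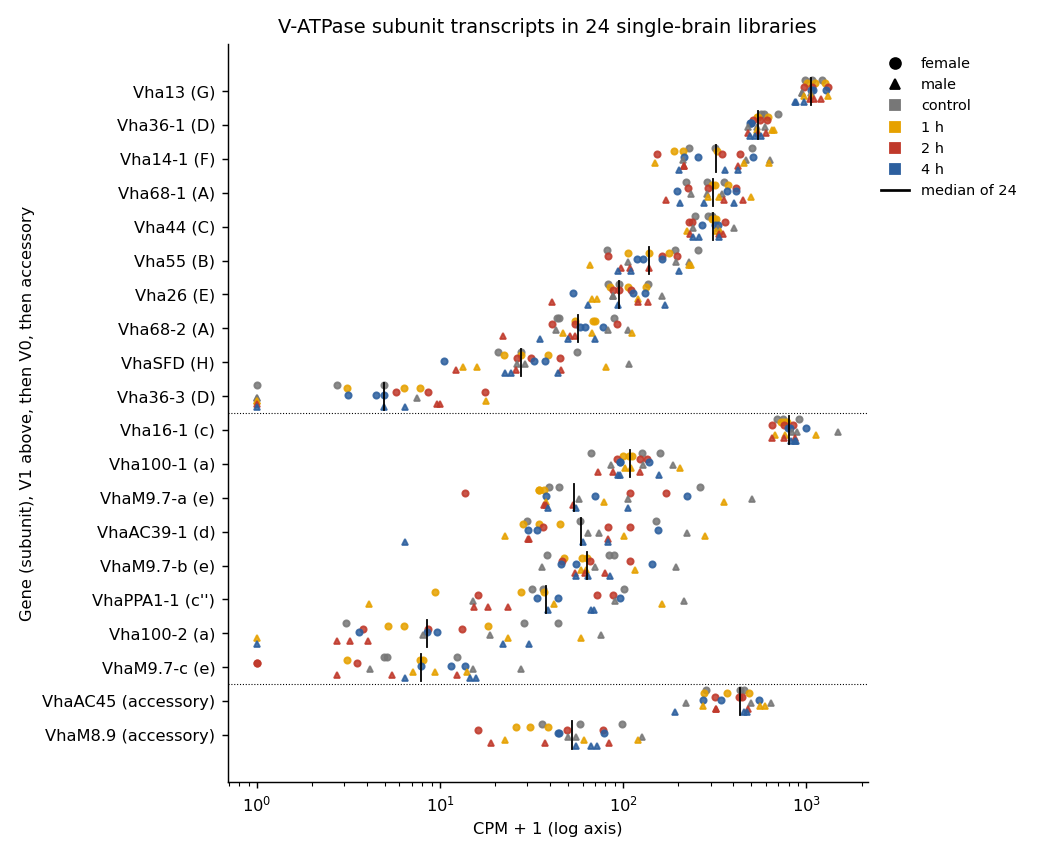
Level of the 20 tested members in each library as CPM + 1 on a log axis, with circles for females, triangles for males, colours for control, 1 h, 2 h and 4 h, and a black line at the median of 24 libraries. *Vha13*, *Vha36-1* and *Vha16-1* form tight clusters, while *VhaM9.7-a*, *VhaAC39-1*, *VhaPPA1-1* and *Vha100-2* of V0 spread widely.

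The most abundant members held their level from brain to brain. *Vha13* (mean 1075 ± 130 CPM, SD, n = 24), *Vha16-1* (836 ± 178) and *Vha36-1* (558 ± 60.1) led the set, with coefficients of variation of 12.1%, 21.3% and 10.8%. Over the 4000 tested genes with a mean of at least 20 CPM, the median coefficient of variation was 43.7%. This median was not matched for abundance, and counting noise is relatively smaller in abundant genes. Nor were the V1 and V0 members matched for abundance. Of the 9 V1 members with a mean of at least 20 CPM, 8 varied less than the median of 43.7% (10.8% to 65.7%, median 32.2%). Of the 6 such V0 members, 2 did, namely *Vha16-1* and *Vha100-1* (21.3% to 113.9%, median 68.3%). Over all 24 libraries the V0 sector thus held both one of the steadiest genes of the set and the most variable ones. These spreads include male control 2 and male 1 h 2. For all 8 tested V0 members the highest library was 1 of those 2. Together the 33 members made up 0.391% to 0.637% of the counts of a library.

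In V1, subunit A is the catalytic subunit that splits ATP. Its leading paralogue was *Vha68-1*. In females, *Vha68-1* was at 352.8, 219.8 and 285.1 CPM in controls, 371.0, 303.1 and 315.9 at 1 h, 226.1, 290.6 and 412.9 at 2 h and 411.4, 196.5 and 368.0 at 4 h. In males, *Vha68-1* was at 344.4, 284.4 and 232.6 CPM in controls, 288.8, 333.9 and 497.3 at 1 h, 356.2, 171.2 and 452.5 at 2 h and 401.5, 202.5 and 276.3 at 4 h. The highest value was that of male 1 h 3 and the lowest that of male 2 h 2, and every group overlapped every other. *Vha68-2*, the second paralogue of subunit A, ran from 21.1 to 110.0 CPM with a mean of 61.2 CPM. Of the counts for subunit A, *Vha68-1* took a median of 87.3%. Its share was lowest in female 2 h 1, at 71.2% (95% Wilson interval 66.2% to 75.8%), and highest in male 1 h 3, at 91.5% (86.5% to 94.8%). These intervals cover counting error only, here and below, since the reads carry no molecular identifiers.

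*Vha55* encodes subunit B, which binds nucleotides beside subunit A. In females, *Vha55* was at 80.5, 254.0 and 191.4 CPM in controls, 104.7, 177.6 and 138.1 at 1 h, 162.1, 195.3 and 81.1 at 2 h and 127.9, 162.5 and 118.3 at 4 h. In males, *Vha55* was at 105.4, 226.4 and 192.8 CPM in controls, 234.6, 226.6 and 64.5 at 1 h, 107.2, 136.5 and 96.3 at 2 h and 92.2, 109.9 and 201.8 at 4 h. Its values spanned a 3.94-fold range, of which the female controls alone covered 80.5 to 254.0 CPM.

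*Vha44* encodes subunit C, the stator part through which V1 and V0 are known to come apart and rejoin. In females, *Vha44* was at 290.9, 247.0 and 303.6 CPM in controls, 312.4, 321.4 and 303.3 at 1 h, 229.0, 237.0 and 357.2 at 2 h and 330.1, 267.7 and 316.7 at 4 h. In males, *Vha44* was at 400.6, 327.9 and 238.9 CPM in controls, 220.6, 321.9 and 337.7 at 1 h, 347.5, 229.3 and 331.5 at 2 h and 331.0, 240.8 and 257.7 at 4 h. No group stood clear of the others, and the group means lay within 1.18-fold of each other. An exon of *Vha44* overlaps *Hmgs* on the opposite strand in the Ensembl annotation, and since the sources used here do not state that counting used the strand, reads of the pair may not be told apart.

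*Vha36-1* encodes subunit D of the central rotor. In females, *Vha36-1* was at 585.9, 702.4 and 560.9 CPM in controls, 539.7, 612.9 and 541.8 at 1 h, 509.8, 607.2 and 559.9 at 2 h and 499.5, 493.9 and 499.4 at 4 h. In males, *Vha36-1* was at 477.9, 592.2 and 534.4 CPM in controls, 647.8, 667.2 and 534.1 at 1 h, 480.7, 603.4 and 546.5 at 2 h and 493.8, 526.1 and 566.4 at 4 h. All 24 values lay between 477.9 and 702.4 CPM, a 1.47-fold range. The second detected paralogue, *Vha36-3*, had 102 counts in all, in 17 libraries, and reached 16.9 CPM at most, so that *Vha36-1* took 97.3% to 100% of the counts of subunit D.

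*Vha14-1* encodes subunit F, the other rotor part. In females, *Vha14-1* was at 226.9, 501.8 and 314.1 CPM in controls, 211.2, 322.4 and 188.3 at 1 h, 346.8, 432.3 and 152.0 at 2 h and 214.3, 510.9 and 253.7 at 4 h. In males, *Vha14-1* was at 210.8, 630.1 and 465.2 CPM in controls, 454.3, 622.5 and 147.3 at 1 h, 212.7, 424.6 and 212.8 at 2 h and 200.8, 423.6 and 359.6 at 4 h. Within most groups the values differed more than the group means did, from 226.9 to 501.8 CPM among female controls and from 147.3 to 622.5 CPM in males at 1 h.

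*Vha26* (subunit E) and *Vha13* (subunit G) form the peripheral stalks that hold V1 still against the rotor. In females, *Vha26* was at 136.2, 81.4 and 93.7 CPM in controls, 131.4, 84.0 and 104.6 at 1 h, 86.7, 94.4 and 108.9 at 2 h and 112.4, 52.0 and 130.1 at 4 h. In males, *Vha26* was at 161.7, 87.0 and 87.0 CPM in controls, 66.4, 70.8 and 119.7 at 1 h, 134.9, 40.0 and 118.7 at 2 h and 168.2, 63.0 and 92.1 at 4 h. Low values of *Vha26* were those of male 2 h 2 and female 4 h 2, and the high ones those of male 4 h 1 and male control 1.

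In females, *Vha13* was at 984.1, 1214 and 1076 CPM in controls, 1012, 1118 and 1268 at 1 h, 1069, 973.7 and 1305 at 2 h and 1087, 1063 and 1283 at 4 h. In males, *Vha13* was at 948.8, 940.2 and 1064 CPM in controls, 973.1, 1054 and 1305 at 1 h, 1051, 1099 and 1201 at 2 h and 862.8, 973.2 and 873.1 at 4 h. The highest group mean of *Vha13*, in females at 4 h, was 1.27-fold the lowest, in males at 4 h.

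*VhaSFD* encodes subunit H, which in yeast keeps free V1 from splitting ATP. In females, *VhaSFD* was at 26.8, 55.2 and 19.8 CPM in controls, 26.6, 21.2 and 37.7 at 1 h, 44.3, 30.5 and 25.3 at 2 h and 36.3, 9.56 and 31.5 at 4 h. In males, *VhaSFD* was at 28.1, 106.4 and 25.1 CPM in controls, 15.0, 79.5 and 12.3 at 1 h, 45.0, 24.9 and 11.2 at 2 h and 21.7, 23.5 and 43.1 at 4 h. Male control 2 and male 1 h 2 were the highest libraries of *VhaSFD*, and all others were at or below 55.2 CPM.

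In V0, the ring that turns with the rotor is built of the proteolipid subunits c and c″. *Vha16-1* (subunit c) supplied 65.0% of the summed V0 level. In females, *Vha16-1* was at 744.8, 908.2 and 686.3 CPM in controls, 750.9, 785.6 and 725.8 at 1 h, 755.7, 844.2 and 648.5 at 2 h and 817.6, 998.5 and 788.6 at 4 h. In males, *Vha16-1* was at 836.4, 1495 and 889.6 CPM in controls, 759.0, 1123 and 669.2 at 1 h, 862.8, 750.5 and 649.6 at 2 h and 862.8, 826.2 and 876.0 at 4 h. Male control 2 and male 1 h 2 were above all other libraries, which lay between 648.5 and 998.5 CPM.

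*VhaPPA1-1* (subunit c″) was far more variable. In females, *VhaPPA1-1* was at 30.9, 99.8 and 35.6 CPM in controls, 26.6, 35.7 and 8.37 at 1 h, 86.7, 71.3 and 15.2 at 2 h and 43.2, 94.5 and 32.9 at 4 h. In males, *VhaPPA1-1* was at 14.1, 212.7 and 89.1 CPM in controls, 41.1, 161.8 and 3.07 at 1 h, 17.3, 14.3 and 22.4 at 2 h and 38.0, 65.5 and 68.6 at 4 h. The values ran from 3.07 CPM in male 1 h 3 to 212.7 CPM in male control 2. The 3 males at 2 h lay close together, between 14.3 and 22.4 CPM, and overlapped the male controls, whose lowest library was at 14.1 CPM.

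*VhaAC39-1* encodes subunit d, which couples the ring to the central rotor. In females, *VhaAC39-1* was at 28.9, 150.6 and 56.8 CPM in controls, 33.7, 44.4 and 27.2 at 1 h, 82.0, 108.3 and 35.5 at 2 h and 29.4, 154.0 and 32.9 at 4 h. In males, *VhaAC39-1* was at 63.3, 220.8 and 72.3 CPM in controls, 100.02, 280.0 and 21.5 at 1 h, 29.4, 81.5 and 29.1 at 2 h and 5.43, 59.3 and 81.3 at 4 h. It ranged from 5.43 CPM in male 4 h 1 to 280.0 CPM in male 1 h 2.

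Subunit a forms the half-channels through which protons pass. Its neuronal form in the fly, *Vha100-1*, is known for its role at synapses and in photoreceptors. In females, *Vha100-1* was at 66.0, 158.5 and 125.4 CPM in controls, 106.5, 111.0 and 98.3 at 1 h, 122.5, 133.3 and 91.2 at 2 h and 95.1, 138.1 and 94.6 at 4 h. In males, *Vha100-1* was at 84.3, 185.3 and 127.8 CPM in controls, 109.4, 204.2 and 101.3 at 1 h, 86.5, 122.9 and 71.7 at 2 h and 92.2, 95.1 and 155.8 at 4 h. Its group means lay between 93.7 and 138.3 CPM, closer together than the values inside the male 1 h group. An exon of *Vha100-1* overlaps *Alg13* on the opposite strand, with the same limit as for *Vha44*.

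*Vha100-2* was the second subunit a paralogue detected. In females, *Vha100-2* was at 2.06, 42.9 and 27.7 CPM in controls, 5.33, 17.4 and 4.18 at 1 h, 12.2, 2.78 and 7.6 at 2 h and 8.64, 7.44 and 2.63 at 4 h. In males, *Vha100-2* was at 7.03, 74.9 and 17.8 CPM in controls, 22.4, 57.7 and 0 at 1 h, 1.73, 3.02 and 2.24 at 2 h and 0, 21.0 and 29.4 at 4 h. All 3 males at 2 h were below all 3 male controls, with 6 counts in the former and 111 in the latter. Of those 111, 93 came from male control 2 and 1 from male control 1, the shallowest library. That 1 count gave the lowest control value, 7.03 CPM, so the separation of the groups rests on it. *Vha100-1* took 71.2% to 100% of the subunit a counts (median 92.3%), with the lowest share in male control 2 (95% Wilson interval 66.0% to 75.9%) and 97.0% to 98.0% in males at 2 h.

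Subunit e is a small membrane protein of V0 with 3 detected paralogues. In females, *VhaM9.7-a* was at 43.3, 262.7 and 38.3 CPM in controls, 33.7, 35.7 and 33.5 at 1 h, 170.5, 108.3 and 12.7 at 2 h and 69.1, 222.0 and 36.8 at 4 h. In males, *VhaM9.7-a* was at 56.2, 505.2 and 104.8 CPM in controls, 77.6, 352.9 and 36.8 at 1 h, 51.9, 37.0 and 35.8 at 2 h and 38.0, 54.3 and 104.8 at 4 h. *VhaM9.7-a* thus spanned 12.7 to 505.2 CPM, the widest range in CPM among V0 members other than *Vha16-1*. Its 3 values at 2 h in males, 35.8 to 51.9 CPM, were below all 3 male controls. The nearest control, male control 1 at 56.2 CPM, had 8 counts, against 30 in male 2 h 1. In females at 1 h the 3 values, 33.5 to 35.7 CPM, were below the 3 female controls too. There the nearest libraries were female control 3, with 29 counts, and female 1 h 2, with 37. Counting error can cover both gaps. The share of *VhaM9.7-a* in the subunit e counts ran from 20.8% in female 2 h 3 (95% Wilson interval 9.24% to 40.5%) to 73.7% in female control 2 (69.2% to 77.8%). *VhaM9.7-b* was steadier, from 35.1 to 194.2 CPM, with its highest value in male control 2. *VhaM9.7-a* led by mean (105.1 against 73.4 CPM) but not by median (53.1 against 62.1 CPM).

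In females, *VhaM9.7-c* was at 4.13, 11.4 and 3.96 CPM in controls, 7.1, 6.76 and 2.09 at 1 h, 0, 0 and 2.53 at 2 h and 6.91, 12.7 and 10.5 at 4 h. In males, *VhaM9.7-c* was at 14.1, 26.6 and 3.14 CPM in controls, 8.41, 13.1 and 6.14 at 1 h, 1.73, 11.3 and 4.48 at 2 h and 5.43, 13.6 and 14.7 at 4 h. *VhaM9.7-c* was thus the least abundant of the subunit e paralogues tested, with 173 counts in all. In females at 2 h it had 1 count over 3 libraries against 18 over the 3 controls.

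**Figure D2:**
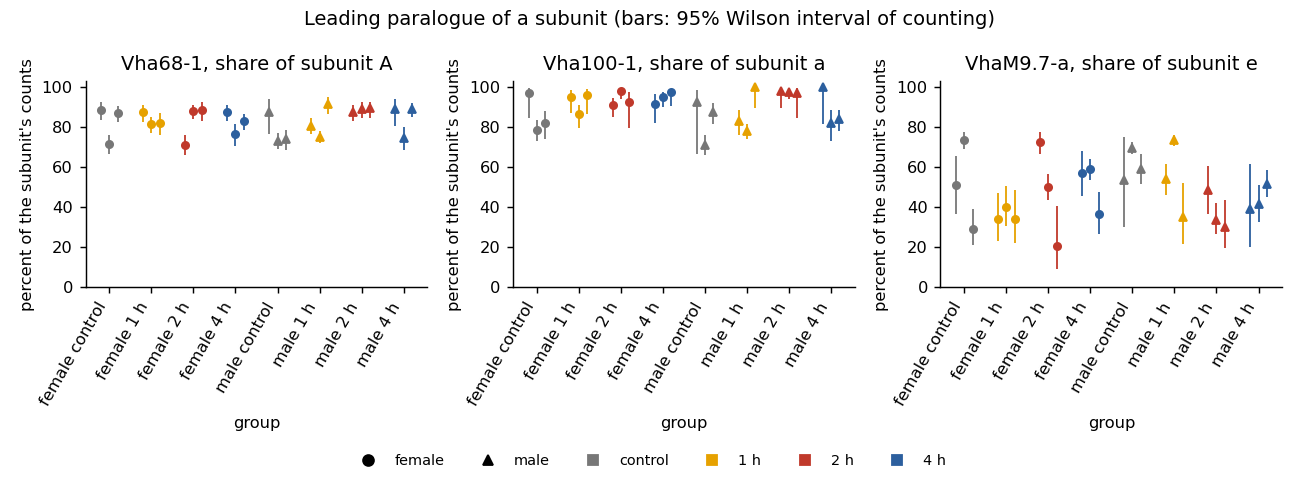
Share of the counts of a subunit, in percent, taken in each library by its paralogue with the highest mean CPM over the 24 libraries. Libraries are shown by group, with 95% Wilson intervals as bars, circles for females and triangles for males. *Vha68-1* and *Vha100-1* held most of the counts of subunits A and a in every library, whereas *VhaM9.7-a* ran from 20.8% to 73.7% of subunit e.

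Both accessory members are membrane proteins that bind V0. *VhaAC45*, the fly counterpart of mammalian Ac45, was the more abundant. In females, *VhaAC45* was at 280.6, 457.2 and 434.2 CPM in controls, 275.2, 483.5 and 366.1 at 1 h, 427.8, 442.4 and 314.1 at 2 h and 273.1, 550.2 and 340.4 at 4 h. In males, *VhaAC45* was at 217.9, 641.3 and 494.6 CPM in controls, 555.2, 596.4 and 273.2 at 1 h, 321.6, 481.2 and 318.1 at 2 h and 189.9, 458.2 and 472.3 at 4 h. Its range of 189.9 to 641.3 CPM was covered almost whole within the male controls alone. *VhaM8.9*, the fly prorenin receptor gene, ran from 15.2 to 124.9 CPM. A further gene that RefSeq names *VhaAC45RP* is listed in the table as *CG31030* and so is no member by symbol. It ran from 144.3 to 345.1 CPM with a median of 271.4 CPM.

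The V1 sector was near constant as a sum and V0 was not. The summed V1 level was 2930 ± 226 CPM (SD, n = 24) and ran from 2626 CPM in male 4 h 1 to 3504 CPM in male 1 h 2, a 1.33-fold range. The summed V0 level was 1286 ± 478 CPM and ran from 858.8 CPM in female 2 h 3 to 2915 CPM in male control 2, a 3.39-fold range. Without TMM factors the ranges were 1.63-fold and 2.84-fold. Male control 2 (2915 CPM) and male 1 h 2 (2307 CPM) were the highest in V0, followed by female 4 h 2 (1770 CPM) and female control 2 (1717 CPM), and the other 20 libraries lay at or below 1414 CPM. Without male control 2 and male 1 h 2, V0 was 1165 ± 242 CPM and still reached 1770 CPM, with 2887 ± 178 CPM for V1. The ratio of V1 to V0 was 2.47 ± 0.60 and ran from 1.13 in male control 2 to 3.57 in female 2 h 3. By group it was 2.51 ± 0.48 in female controls, 2.87 ± 0.20 at 1 h, 2.61 ± 0.83 at 2 h and 2.37 ± 0.69 at 4 h in females (SD, n = 3). In males it was 1.91 ± 0.69 in controls, 2.47 ± 0.94 at 1 h, 2.82 ± 0.50 at 2 h and 2.17 ± 0.24 at 4 h. Within each sex the injured groups overlapped their controls, except that all 3 males at 2 h (2.53 to 3.39) were above all 3 male controls (1.13 to 2.46). The nearest values were 2.46 in male control 1, the shallowest library, and 2.53 in male 2 h 1. No test was made of these sums. For all 8 tested V0 members the highest library was male control 2 or male 1 h 2, as it was for 4 of the 10 tested V1 members.

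**Figure D3:**
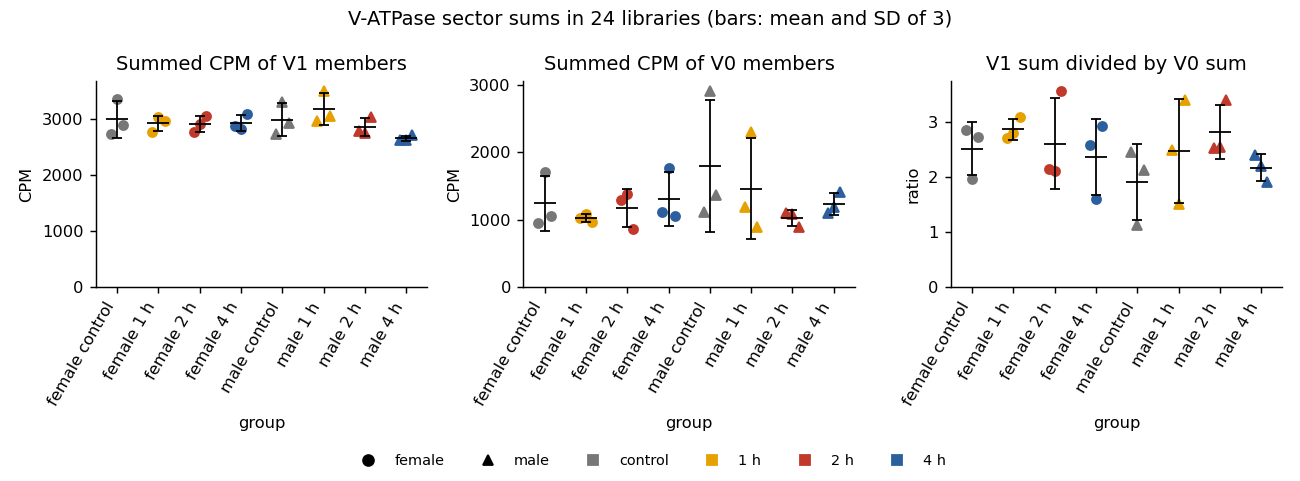
Summed CPM of the V1 members, summed CPM of the V0 members and their ratio in each library by group, with the group mean and SD of 3 as black bars, circles for females and triangles for males. V1 stays between 2626 and 3504 CPM, while V0 runs from 858.8 to 2915 CPM with its highest points in male control 2 and male 1 h 2.

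Marker genes of other tissues and cell types differed in the same libraries. In male control 2 and male 1 h 2, the summed level of the 10 glial markers was 2882 and 2309 CPM, against 1508 to 2191 CPM in the other 22 libraries. The 11 neuronal markers summed to 1569 and 1800 CPM, against 2476 to 4215 CPM, and the 13 photoreceptor markers to 9410 and 17090 CPM, against 2554 to 9862 CPM. The 5 fat body markers summed to 286.0 and 1137 CPM, against 1073 to 20590 CPM, the 9 antennal markers to 1200 and 550.1 CPM, against 229.0 to 7155 CPM, and the 4 hemocyte markers to 71.7 and 55.6 CPM, against 93.5 to 212.8 CPM. In female control 2 and female 4 h 2, where V0 was also high, the muscle markers stood at 3111 and 3368 CPM, within the range of the other libraries. Their gut and Malpighian tubule sums (446.6 and 567.2 CPM) and photoreceptor sums (3616 and 2554 CPM) were the 2 lowest among the 22, and their neuronal sums (2530 and 2476 CPM) were among the 3 lowest. Female control 2 also had the highest antennal, fat body and hemocyte sums of all 24 libraries. The part of these differences in the V0 level was not tested.

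The first question of the design is what injury did within each sex. A member was called when the unadjusted p of edgeR's quasi-likelihood test was under 0.05 and the absolute log2 fold change over 1, the criterion that the study marks in its heatmaps. No member reached a false discovery rate (FDR, Benjamini-Hochberg over the 7865 tested genes) under 0.05 in any comparison.

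In females, *VhaM9.7-c* at 2 h was the 1 member called over the 3 time points. Its 1 count at 2 h against 18 in controls corresponds to a 19.1-fold lower level (95% exact counting interval 3.02 to 797.8), and the fitted log2 fold change was -3.39 ± 1.31 (SE, FDR = 1, edgeR). The counting interval pools the 3 brains of a group and covers counting error only, and 13 of the 18 control counts came from female control 2. By group mean the level was 6.49 CPM in controls and 0.84 CPM at 2 h. *VhaM9.7-c* was 1 of 20 members, against 2.16% of all tested genes called at 2 h. The call was lost without female control 2 (log2 fold change -2.68), without female 2 h 1 (-2.73) or without female 2 h 2 (-2.72), where the unadjusted p was over 0.05. Of all genes 1.62% were called at 2 h without female control 2. At 1 h and at 4 h edgeR called 0 of 20 members, and none had an unadjusted p under 0.05, beside 1.44% and 1.42% of all genes called. DESeq2 called 1 member at 1 h (*VhaM9.7-a*) and 0 at 4 h, and limma voom 0 at both. At 1 h all 8 V0 members had a negative log2 fold change (median -0.75, against -0.06 over all genes) with *VhaM9.7-a* at -1.75 ± 0.98 (SE, FDR = 1, edgeR), while V1 members had a median of 0.05. Without female control 2 the V0 median at 1 h was -0.22, against 0.04 over all genes, with 5 of 8 members negative. That library had the highest summed antennal (7155 CPM) and fat body (20590 CPM) markers of all 24, and 6 of the 8 tested antennal markers were called lower at 1 h. The part of this difference in the V0 values was otherwise not tested. At 2 and 4 h the V0 medians were -0.06 and -0.03 and the V1 medians -0.03 and -0.0045, while without female control 2 the V0 medians were 0.24 and 0.55. Without female control 3, *VhaM9.7-a* was called at 1 h, and without female control 1 *Vha100-2* was called at 4 h, making 1 of 20 in each.

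In males, 3 members of V0 were called at 2 h, all lower than in controls, and none at 1 or 4 h. *Vha100-2*, the second subunit a, had a log2 fold change of -3.79 ± 1.24 (SE). For *VhaPPA1-1*, the proteolipid c″, it was -2.63 ± 0.91, and for *VhaM9.7-a*, a subunit e, it was -2.45 ± 0.99. The FDR of each was 0.639 (edgeR, n = 3 against 3). These were 3 of 20 members, against 7.23% of all tested genes called in this comparison. Of the 8 tested V0 members all 8 had a negative log2 fold change, with a median of -1.30, while 50.7% of all genes did and their median was -0.02. Of the 10 V1 members 6 were negative, with a median of -0.12. *Vha13*, *Vha36-1* and *Vha68-1* of V1 were at 0.18 ± 0.23, 0.02 ± 0.24 and 0.19 ± 0.38 (SE).

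These male values rest in large part on male control 2. Without it the unadjusted p of all 3 was over 0.05 and none of the 20 members was called, beside 1.96% of all genes. The log2 fold change was then -2.43 for *Vha100-2*, -1.69 for *VhaPPA1-1* and -1.01 for *VhaM9.7-a*, the V0 median -0.36 with 7 of 8 members negative, and the V1 median -0.01. With male control 2 and male 1 h 2 both left out, *VhaPPA1-1* was called (1 of 20, beside 2.58% of all genes) and the V0 median was -0.35. *VhaM9.7-a* was also not called without male 2 h 2 (-2.37), without male 2 h 3 (-2.37) or by limma voom (-1.39), which called *Vha36-3* and *VhaAC39-1* beside the other 2 members. Beside this result, the summed level of the 10 glial markers was 1747 to 2882 CPM in male controls and 1508 to 2134 CPM in males at 2 h. That of the 8 muscle markers was 282.0 to 3525 CPM against 3243 to 3720 CPM, and that of the 11 neuronal markers 1569 to 3669 CPM against 3163 to 4093 CPM. Of the 10 glial markers 3 were called, all lower (*loco*, *wrapper* and *Gat*), beside 7.23% of all genes, with a list median of -0.52. None of the muscle or neuronal markers was called, and their medians were 0.65 and 0.53. Without male control 2 the V0 median was nearer to 0, as given above. The share of these differences in the result was otherwise not tested.

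At 1 h edgeR called 0 of 20 members in males, beside 4.62% of all genes, and at 4 h 0 of 20, beside 3.92%. None had an unadjusted p under 0.05 at either time. DESeq2 called 0 and 1 (*VhaM9.7-a* at 4 h), and limma voom 0 and 0. The V0 medians were -0.37 at 1 h and -0.76 at 4 h, with 6 and 8 of 8 members negative, and the V1 medians -0.04 and -0.17. Without male control 2 the V0 medians turned to 0.46 at 1 h and 0.06 at 4 h, with 1 and 3 of 8 members negative, and with male 1 h 2 left out as well they were -0.13 and 0.07. The 3 male time points share the same controls, as the 3 female ones share theirs, so these directions are not separate observations. Without male 1 h 2, *VhaPPA1-1* and *VhaSFD* were called at 1 h, and without male control 1 *VhaM9.7-a* was called at 4 h.

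**Figure D4:**
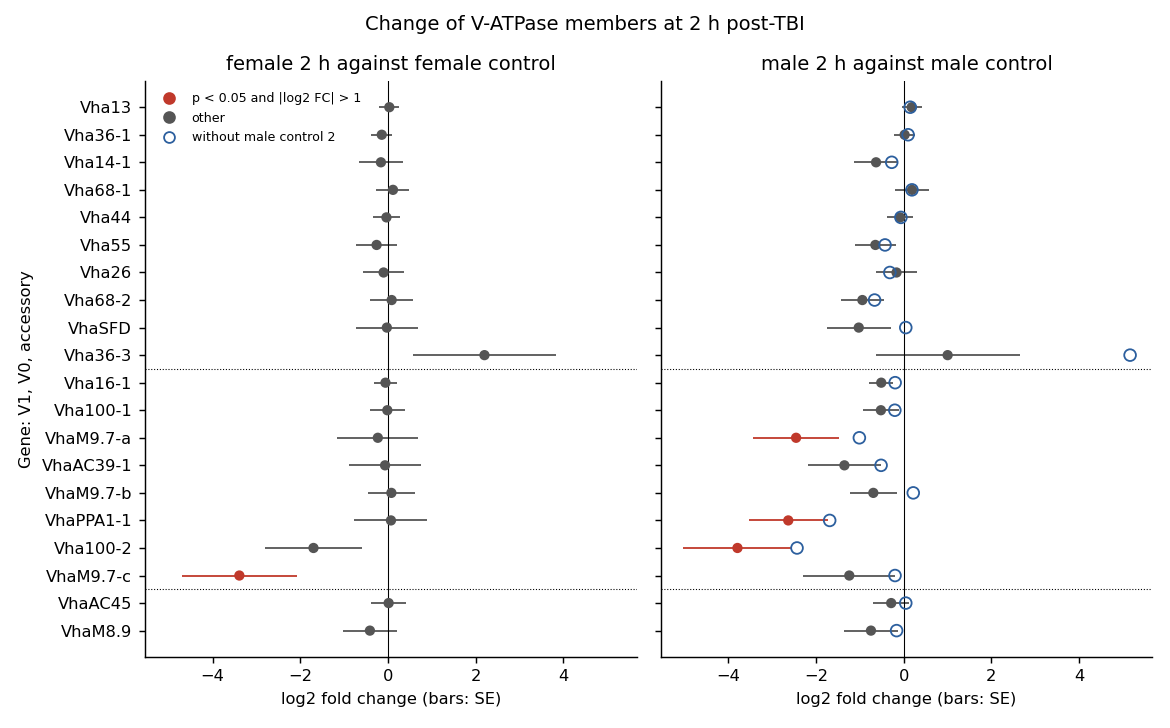
Log2 fold change of the 20 tested members at 2 h against the controls of the same sex, with SE bars, red for members past the call and open blue circles for the male values without male control 2. In males *Vha13*, *Vha36-1*, *Vha68-1* and *Vha44* of V1 lie near 0, whereas the 3 called V0 members lie at -2.45 to -3.79 and move towards 0 without male control 2 (*Vha36-3* is at 0 counts in the other male controls).

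The second question is whether the sexes differ. For the interaction of sex and injury at 2 h, 1 of 20 members was called, beside 3.64% of all tested genes. *VhaPPA1-1* changed by -2.63 in males and 0.07 in females, a difference of -2.70 ± 1.22 (SE, FDR = 1.00, edgeR). Leaving out 1 library ended this call for 7 of the libraries of the 4 groups involved. They were female control 1, female control 3, female 2 h 1, female 2 h 2, male control 2, male 2 h 1 and male 2 h 2, with a difference of -1.76 without male control 2. Without female control 2 or female 2 h 3 further members were called, 2 and 3 in all. Of all genes 2.41% were called without male control 2 and 6.1% without female control 2. For the interactions at 1 h and 4 h, edgeR called 0 of 20 members with none at an unadjusted p under 0.05, beside 3.03% and 3.05% of all genes, and DESeq2 and limma voom called 0 as well. Without female control 2, *VhaM9.7-a* was called at 4 h, beside 4.47% of all genes.

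In uninjured males against uninjured females 0 of 20 members were called by edgeR, DESeq2 or limma voom, none had an unadjusted p under 0.05, and 3.03% of all genes were called. All 8 V0 members were higher in males in value (median log2 difference 0.59, against -0.01 over all genes), with the highest at 1.13 ± 1.04 (SE) for *VhaM9.7-c*. This direction was lost without male control 2, where 3 of 8 were higher in males and the V0 median was -0.17, against -0.06 over all genes. Without female control 2 all 8 stayed higher in males and the V0 median was 1.35, against 0.07 over all genes. *VhaM9.7-a*, at 0.97 with all libraries, was called without female control 2, beside 4.28% of all genes. Over all 12 male against all 12 female libraries, *VhaM9.7-c* was called, at a log2 difference of 1.35 ± 0.55 (SE, FDR = 1.00, edgeR), beside 3.03% of all genes. The male libraries had 1.73 to 26.6 CPM and the female libraries 0 to 12.7 CPM, so that the sexes overlapped. The call was lost without male control 2 (1.09), without male 2 h 2 (1.10) or with male control 2 and male 1 h 2 both left out (0.99), where *Vha36-3* was called in its place. Of all genes 2.31% were called without male control 2 and 2.73% with both left out. The other 19 members had log2 differences between -0.13 and 0.52.

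Over the 8 groups at once, edgeR's test of any difference called 0 of 20 members at an unadjusted p under 0.05, beside 2.58% of all genes. The lowest of their unadjusted p-values was that of *Vha100-2*. DESeq2 called 3 members and limma voom 1. Of the 20 tested members, 12 had their highest group mean in male controls, a group that holds male control 2, and 5 had their lowest in males at 2 h. The steadiest by group mean were *Vha44* (1.18-fold from the lowest to the highest group), *Vha36-1* (1.24-fold), *Vha13* and *VhaAC45* (both 1.27-fold).

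Levels of most members were related to the depth of the library. This relation was looked for after the values had been seen. Across the 24 libraries, the rank correlation of CPM with total counts passed an adjusted permutation p of 0.05 for 15 of 20 members, 12 positive and 3 negative. Of all 7865 genes 42.7% passed, 24.1% with a positive and 18.6% with a negative correlation. With 7865 relations computed, p-values were adjusted over all of them, and 1e-05 is the smallest p that the 100000 resamples can give. *Vha14-1* had a Spearman rho of 0.92 (permutation p = 1e-05, adjusted p = 0.000114) and a Pearson r of 0.83 on the log2 scale (permutation p = 1e-05), and r was 0.95 without male control 1 and male 4 h 1, the 2 libraries farthest from the median depth. For *VhaAC45* rho was 0.89 (permutation p = 1e-05), r 0.93 (permutation p = 1e-05) and 0.90 without those 2. For *VhaAC39-1* rho was 0.85 (permutation p = 1e-05), r 0.76 (permutation p = 2e-05) and 0.90 without them. *Vha26* went the other way, with rho -0.85 (permutation p = 1e-05), r -0.79 (permutation p = 2e-05) and -0.73 without them, as did *Vha68-1*, with rho -0.74 (permutation p = 5e-05), r -0.64 (permutation p = 0.00063) and -0.73. For *Vha13* rho was -0.12 (permutation p = 0.592) and r -0.01 (permutation p = 0.974), with r -0.48 without those 2 libraries. Male control 2 and male 1 h 2, with 1407485 and 1880528 total counts, were kept in all of these correlations.

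Taken as deviations from the group means, the count was 15 members again, against 48.0% of all genes, and all 15 kept their sign. The Spearman coefficient was then 0.90 for *Vha14-1*, 0.92 for *VhaAC45*, 0.87 for *VhaAC39-1*, -0.81 for *Vha26* and -0.76 for *Vha68-1*. Within the 12 shallowest libraries all 15 had the same sign as over all 24, and within the 12 deepest 13 did, with *Vha44* at 0.19 and *Vha68-1* at 0.07 as the exceptions. Without TMM factors 13 members passed, 9 of them positive, against 43.4% of all genes. *Vha13* was among them, at a rho of -0.64 (permutation test, adjusted p = 0.00459). On that scale 13 of the 15 kept their sign. *Vha16-1* (0.00) and *Vha36-1* (-0.19) did not, so their positive relation holds only on the TMM scale. Subunits that stand in fixed numbers within 1 complex thus had levels that ran in opposite directions across libraries, as *Vha14-1* and *Vha26* of V1 did. Total counts in the 3 male controls were 117416, 1407485 and 1034729, and in the 3 males at 2 h 552182, 1471729 and 425286. The part of depth in the comparisons above was not tested.

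**Figure D5:**
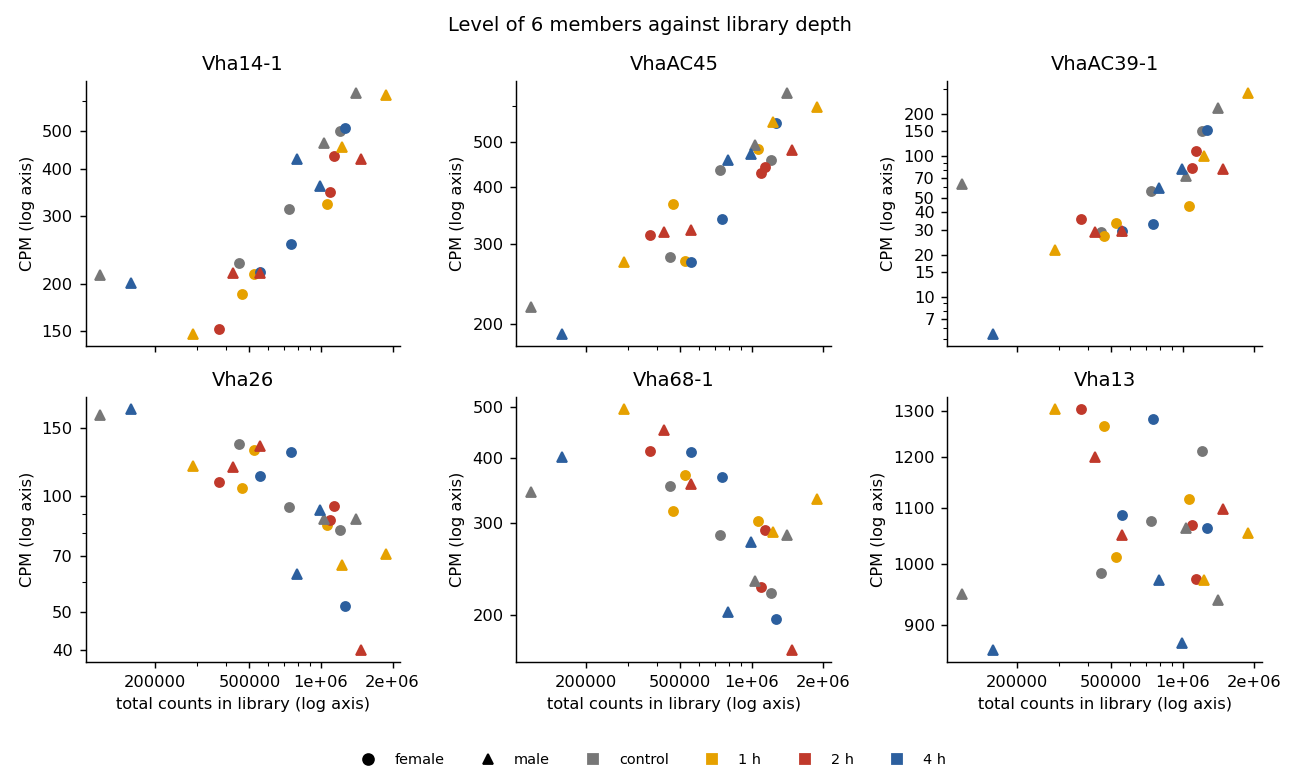
CPM of 6 members against the total counts of each of the 24 libraries, both on log axes, with circles for females, triangles for males and colours for control, 1 h, 2 h and 4 h. *Vha14-1*, *VhaAC45* and *VhaAC39-1* are higher in deeper libraries (rho 0.92, 0.89 and 0.85), *Vha26* and *Vha68-1* lower (-0.85 and -0.74), and *Vha13* has a rho of -0.12.

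Genes that act with the V-ATPase were counted from lists drawn up by function. Of 7 assembly and regulation genes 6 were tested, and 1 of them, *CG14671*, was called as higher in females at 2 h (log2 fold change 1.65 ± 0.76, SE) and at 4 h (1.72 ± 0.76), with an FDR of 1 in both (edgeR). It had 2.64 to 19.3 CPM in female controls and 15.7 to 58.3 CPM at 2 h, so that these groups overlapped. Its interaction at 1 h was also called (-2.32 ± 1.08, and -2.55 without male control 2 and male 1 h 2). These were 1 of 6 genes each, beside 2.16%, 1.42% and 3.03% of all genes. Of 22 lysosomal genes 19 were tested. In males 1 was called at 1 h and 2 at 2 h, all lower, and 0 at 4 h, beside 4.62%, 7.23% and 3.92% of all genes, and in females 0 at any time. Without male control 2 none was called in males at any of the 3 times, beside 3.36%, 1.96% and 1.48% of all genes. *Ppt2*, which encodes a lysosomal thioesterase, had 0, 42 and 9 counts in male controls and 0, 0 and 0 at 2 h, which is at least 17.1-fold lower with 3 counts over the group as the floor, and 42 of the 51 control counts came from male control 2. *Npc2a*, which encodes a sterol-binding protein of the lysosome, was at 35.1, 489.1 and 101.6 CPM in male controls and at 43.2, 15.1 and 29.1 CPM at 2 h (log2 fold change -2.91 ± 1.13, SE, FDR = 0.639, edgeR), with overlapping groups. Its log2 fold change was -1.35 without male control 2. Among the interactions, 0, 3 and 2 lysosomal genes were called at 1, 2 and 4 h, all lower in males relative to females, beside 3.03%, 3.64% and 3.05% of all genes. These counts were 1, 1 and 0 without male control 2, beside 4.15%, 2.41% and 2.19% of all genes. Of the 5 vesicular transporters that load synaptic vesicles with the proton gradient, all 5 were tested and edgeR called 0 in every comparison. In males at 2 h the median log2 fold change was -0.12 for the assembly list, -0.85 for the lysosomal list and 0.20 for the transporters, beside -0.02 over all genes. Without male control 2 these medians were -0.42, -0.37 and -0.12, beside 0.03 over all genes.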

How the data were processed

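Libraries were prepared with the QuantSeq 3′ mRNA-Seq FWD kit (low input) from single *tau*-KO brains, 24 samples in 8 groups of 3, sequenced on 1 lane, separated with CASAVA 1.8.2 and aligned by the authors to build dm3 with STAR 2.4. The deposited values are raw counts per gene, tabulated with HTSeq. Rows for reads outside genes (1.74% to 7.19% of all tabulated reads per library), ambiguous reads (6.06% to 8.71%) and multiply aligned reads (12.2% to 32.2%) were left out, so reads shared by near-identical paralogues are not counted. The 8 deposited tables of the authors' comparisons (log2 fold changes, mean log2 CPM, likelihood ratios, p-values and FDR, with edgeR 3.22.3) were not used here.

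Counts were tested with edgeR 4.0.16 in R 4.3.3 (robust quasi-likelihood F-test, TMM, genes with at least 5 counts in at least 3 libraries, 1 fit of 8 groups). SE is the absolute log2 fold change over the square root of F. A call needed p under 0.05 and an absolute log2 fold change over 1, as in the study's heatmaps, while the study's methods add an FDR under 0.05. DESeq2 1.42.0, limma 3.58.1 (voom with quality weights), DESeq-type size factors (RLE), no filter, a replicate block and left-out libraries were alternatives. The test of any difference among groups had no fold limit. Depth relations were tested on log2(CPM + 1) with 100000 permutations, two-sided. Scripts were tested on simulated data. No replicate pair agreed within sampling noise. Nothing states whether replicate brains came from separate vials, so p-values measure the spread between these samples.

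Values in every library are given for members called in a comparison and for the most abundant member of each subunit, others by range, and of the pathway lists up to 2 called genes of lowest p. Members and lists were chosen with earlier results of these data known. Gene names and chromosome arms come from RefSeq and overlaps from Ensembl annotation of a newer build than the counts, so no coordinates are given.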

Additional observations from a re-analysis of the deposited data

Results flagged for a closer look

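*VhaPPA1-1*, the proteolipid subunit c″, was called in the test of the interaction of sex and injury at 2 h, as 1 of 20 members beside 3.64% of all genes. The male change minus the female change was -2.70 on the log2 scale (SE 1.22, FDR = 1.00, edgeR, 3 libraries in each of 4 groups), with -2.63 in males and 0.07 in females. The difference was -1.76 without male control 2 and -1.81 without male control 2 and male 1 h 2, and over 31 alternatives it ran from -3.45 to -1.76 and was called in 23. Some of the 31 left out a library outside the 4 groups involved, which can hardly change the difference. Leaving out any of 7 of the 12 libraries involved ended the call.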

How the results depend on the processing

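At most 3 of 20 members were called in a comparison, so single libraries decide the counts. None of the 6 called member changes reversed under any of the 31 alternatives. Most of these alternatives left out 1 library, often one outside the groups compared, where the sign could hardly change. Requiring an FDR under 0.05 left 0 called members in every comparison, in place of 1 at 2 h in females, 3 at 2 h in males, 1 for the interaction at 2 h and 1 for males against females. In females at 1 h the count was 1 with DESeq2, 2 without the filter and 1 once male control 2 and male 1 h 2 were dropped, at 2 h it was 2 with limma voom, and at 4 h it was 1 without the filter and 1 with the 3 shallowest libraries dropped. In males at 2 h it was 1 with those 2 libraries dropped and 5 with the 3 shallowest dropped, and at 4 h 1 with DESeq2 and 2 without the filter. For the interaction it was 2 at 2 h and 1 at 4 h without the filter, and 0 at 2 h with those 2 libraries dropped. For males against females it was 0 with limma voom and 0 without the filter. For any difference among the groups it was 1 with RLE factors, 3 with DESeq2, 1 with limma voom, 4 without the filter and 2 with the 3 shallowest dropped. The cause of these shifts was not tested.

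Leaving out 1 library at a time gave 0 to 1 called members in females at 1, 2 and 4 h, 0 to 2, 0 to 4 and 0 to 1 in males at 1, 2 and 4 h, 0 to 0, 0 to 3 and 0 to 1 for the interactions, 0 to 1 for the control sexes, 0 to 1 for males against females and 0 to 2 for any difference. The number of members related to depth was 14 to 16. RLE factors moved the median of all genes by -0.15 at 2 h in males, -0.17 for the interaction at 2 h and 0.11 between control sexes, with a V0 median of -1.48 and a V1 median of -0.29 at 2 h in males.

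With the replicate number as a block, the count in males at 2 h was 4 in place of 3 and that of each other comparison was unchanged. The labels do not say what the numbers share, so they were not taken as pairs: over 84 same-numbered pairs the median correlation of deviations was 0.15, against -0.10 for different numbers, and 52 pairs were over 0.1. As a hint from the data and not the design, 15 of 24 libraries correlated best with their own number.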
